A study of Mus musculus with 3 samples.

Results

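The 8 genes described here encode the giant proteins, M-band crosslinkers and myosin binding proteins of the muscle sarcomere: Ttn, Neb, Myom1, Myom2, Myom3, Mybpc1, Mybpc2 and Mybph. They were chosen by gene symbol from 46316 symbols in the deposited tables, by a rule that uses none of their measured differences, although earlier results of these data were known. For each gene the transcript row with the highest summed count over the libraries was taken. All 8 passed the filter on low counts, a mean of at least 1 CPM (counts put on the same library total), which kept 13381 genes.

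RNA was sequenced from C2C12 cells, mouse myoblasts of an immortal line that form multinucleated myotubes, at day 4 of myogenic differentiation. One library came from wild-type cells (WT), another from cells labelled as a knockout of Drp1 (KO), and the last from such knockout cells transiently expressing FLAG-tagged Drp1 (rescue). Drp1, the product of Dnm1l, is the GTPase that divides mitochondria, and the series title concerns mitochondrial dynamics, fibre type and metabolism. How the knockout was made, whether it is a single clone, and what share of rescue cells took up FLAG-Drp1, was not given in the sources used here.

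The sarcomere is the contractile unit of striated muscle. Titin, the largest known protein, runs from the Z-disc to the M-band, acts as a spring and is a scaffold for the thick filament, while nebulin lies along the thin actin filament and helps to set its length. Myomesins crosslink titin and myosin at the M-band in the middle of the sarcomere. Myosin binding proteins sit in stripes on the thick filament and tune how myosin heads meet actin.

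There was 1 library per group, so no difference has a replicate check, and every statement describes these libraries. The libraries had 13894134 (WT), 13790401 (KO) and 13925292 (rescue) counts over genes. Intervals are 95% and cover counting error only. In bulk RNA, fewer cells of a type and less RNA per cell cannot be told apart. Dnm1l, the labelled target, had 1823 counts in WT, against 1284 in KO and 1481 in rescue, a log2 ratio of KO against WT of -0.48. Its RNA was therefore still present in the library labelled KO, and a count over the whole gene cannot check a small lesion. Reads from FLAG-Drp1 and from the cells' own gene cannot be told apart in these tables. All 10 myotube markers were detected in every library, with summed scaled counts of 210628 in WT, 215105 in KO and 266166 in rescue. Acta1 and Myh3 make up much of that sum. Singly, 7 of the 10 had a log2 ratio of KO against WT below 0 (median -0.25), and Ckm, Actn2 and Mb were lower by 2-fold or more. In rescue against KO none of the 10 was below 0 (median 0.33), so these markers differed in the same directions as most of the members. The 10 myoblast markers, all detected, summed to 53809, 43000 and 43603, most of it Itga7. They were split too. Of the 8 that passed the filter, 5 had a log2 ratio of KO against WT below 0, with Cdh15 and Heyl lower by 2-fold or more. Vcam1, Ncam1 and Notch1 were above 0, at 0.43, 0.10 and 0.05. The 10 fibroblast markers were split. They summed to 40558, 84111 and 69829, and of the 7 that passed the filter Col1a1, Pdgfra, Postn and Dpt were higher by 2-fold or more in KO than in WT, whereas Dcn was lower (5177, 1787 and 1792 counts). Of the others, Tcf21 was at 0 in every library, Thy1 at 0 in WT and rescue, and Lum at 0 in KO. The 8 adipocyte markers summed to between 152 and 169 with Adipoq at 0 throughout, the 8 cardiac markers to between 13479 and 18385 with Nppa and Myl7 at 0, the 7 osteoblast markers to between 8160 and 9966 with Alpl and Ibsp at 0, and the 6 smooth muscle markers to between 50694 and 74186 with none at 0. Most of each of these sums came from a single gene, Pparg, Tnnt2, Spp1 and Acta2 in turn. The part of the marker differences in the results was not tested.

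Most members were lower in KO than in WT and higher in rescue than in KO, most by less than 2-fold, and Mybpc1 and Mybpc2, the skeletal myosin binding protein C genes, differed more. The ratio of KO against WT was below 0 on the log2 scale for 6 of 8 members, against 49.9% of all genes tested. In KO against WT, 1 of 8 members, Mybpc1, was lower by 2-fold or more, against 4.06% of all genes tested, and none was higher, against 5.34%. The counting interval lay below 0 for 5 members, Neb, Myom1, Myom2, Mybpc1 and Mybph, against 29.3% of genes, and above 0 for none, against 29.1%. The median log2 ratio was -0.21 over the members and 0.00076 over all genes tested.

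In rescue against KO, Mybpc1 and Mybpc2 were higher by 2-fold or more, 2 of 8 members against 1.3% of genes, and none was lower, against 0.575%. Mybpc1 had 2 counts in KO and 27 in rescue, and it passed the filter mostly through its 223 counts in WT. The ratio was below 0 for 1 member, against 49.7% of genes. The interval lay above 0 for 7 members, against 17.7% of genes, and below 0 for 1, Ttn, against 17.6%. The median log2 ratio was 0.51 over the members and 0.0029 over all genes. In rescue against WT, Mybpc2 was higher by 2-fold or more, against 4.58% of genes, and Mybpc1 lower, against 3.06%. The interval lay above 0 for 5 members, Neb, the 3 myomesins and Mybpc2, against 26.9% of genes. It lay below 0 for 3, Ttn, Mybpc1 and Mybph, against 25.4%, and the ratio was below 0 for the same 3, against 49.0%. The median was 0.19 over the members and 0.010 over all genes. Each pair of comparisons shares a library, so the values are set side by side and not combined. Such an interval shows a difference between libraries beyond counting error and no more.

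**Figure D1:**
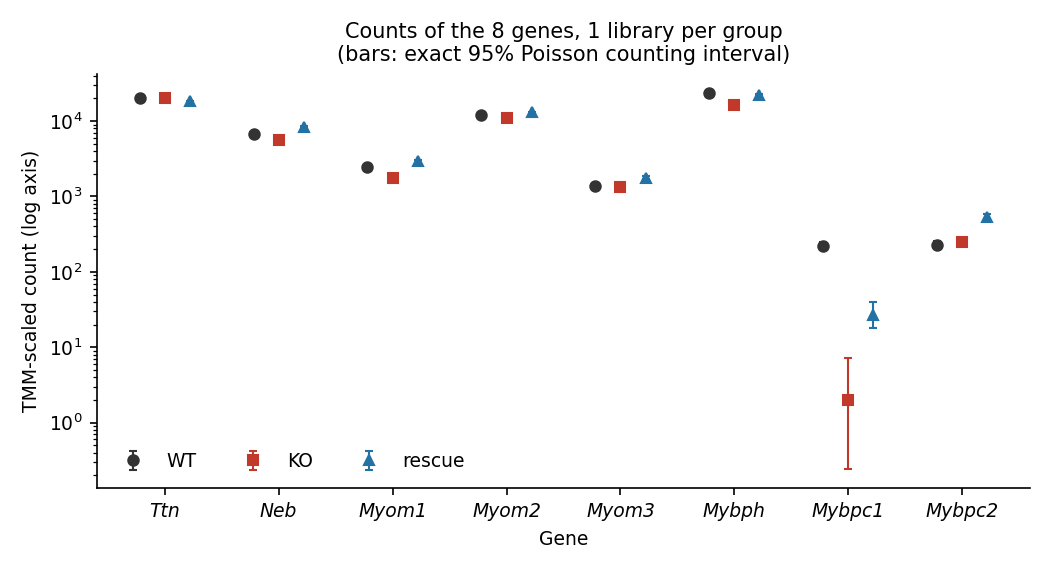
Counts of the 8 genes after TMM scaling of the libraries, on a log axis, 1 point per library (WT, KO, rescue), with bars for the 95% counting interval. Mybpc1 has scaled counts of 220.2 in WT, 2.01 in KO and 27.2 in rescue, while Ttn lies between 18402 and 20352.

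**Figure D2:**
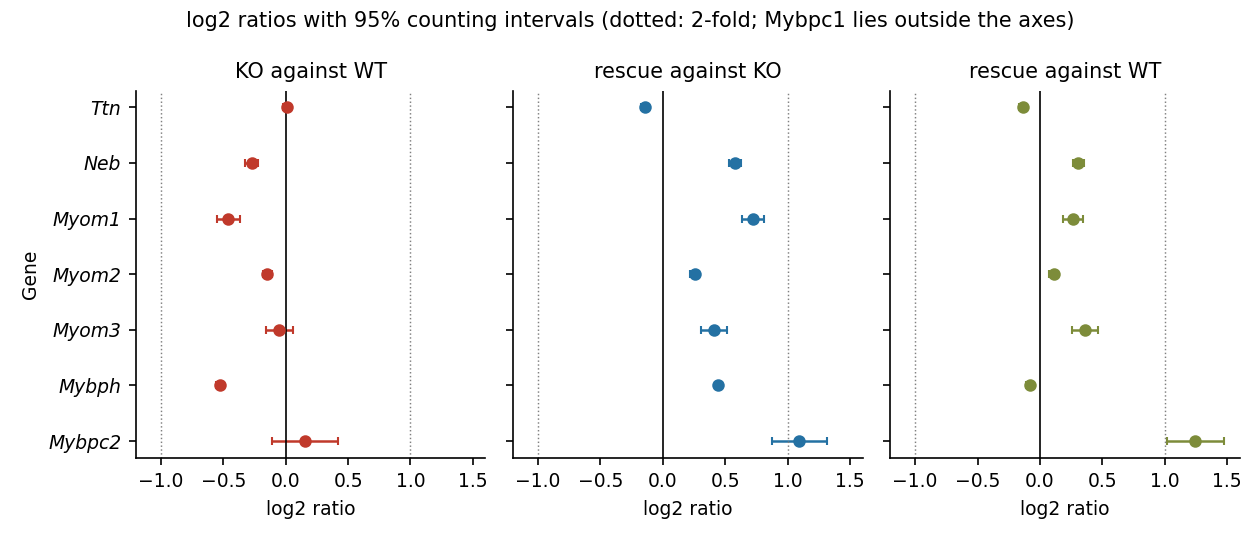
Log2 ratios of the members for each pair of libraries, with 95% counting intervals and dotted lines at 2-fold. Mybpc1 lies outside the axes, at -6.46, 3.46 and -2.99. Mybpc2 is the only gene drawn that passes a dotted line, at 1.09 in rescue against KO and 1.24 in rescue against WT.

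By scaled count, before transcript length is considered, titin and nebulin, the giant proteins, followed different orders over the libraries. Ttn had 20493 counts in WT, against 20245 in KO and 18268 in rescue. WT and KO were nearly equal for titin, and rescue was lowest. Its log2 ratio was 0.0082 for KO against WT (interval -0.02 to 0.04), -0.15 for rescue against KO (interval -0.17 to -0.12) and -0.14 for rescue against WT (interval -0.17 to -0.11). Ttn was the only member with fewer counts in rescue than in KO.

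Neb had 6860 counts in WT, against 5580 in KO and 8328 in rescue, so KO was lowest and rescue highest. Neb was 1.21-fold lower in KO than in WT (log2 ratio -0.27, interval -0.32 to -0.22). The rescue library exceeded KO by a log2 ratio of 0.58 (interval 0.53 to 0.63) and WT by 0.31 (interval 0.26 to 0.35). Per length, nebulin RNA stood to titin RNA at a ratio of 1.54 in WT (interval 1.498 to 1.582), 1.27 in KO (interval 1.23 to 1.31) and 2.10 in rescue (interval 2.04 to 2.15). These ratios are taken within a library, so library scaling does not touch them, and their intervals do not overlap. They do depend on the length of the row taken for Ttn. A shorter row, transcript variant X11, held 92.9% of the highest row's count in WT, 90.5% in KO and 92.0% in rescue on 64.4% of its length. The size of these ratios, and whether they exceed 1, was therefore not settled.

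Titin and nebulin have very long transcripts, and the ratio between libraries moved with transcript length over all genes. Ttn had the longest row of the 13381 genes, 107665 bases, and Neb, at 23409 bases, ranked 56. In KO against WT the median log2 ratio was -0.13 in the shortest of 10 equal groups of genes by length and 0.19 in the longest, which holds Ttn and Neb. In rescue against KO these medians were 0.22 and -0.20. The 193 other genes with rows of at least 15000 bases had medians of 0.23 and -0.25 in these comparisons. With a smooth trend on length removed, the log2 ratio of Ttn was -0.21 for KO against WT and 0.23 for rescue against KO, the opposite sign to the values above in both. Neb moved to -0.51 and 0.87, in the same directions as before. In rescue against WT the longest group had a median of -0.0017, and Ttn was at -0.04 with the trend removed. RNA quality was not measured here, and its part in the length trend was not tested.

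**Figure D3:**
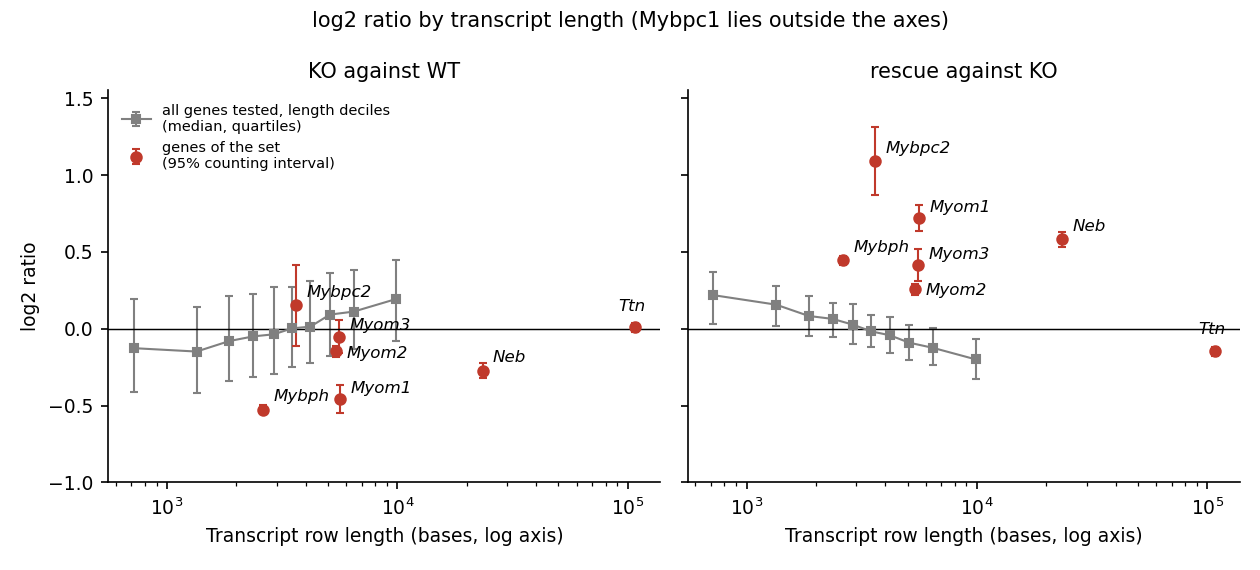
Median log2 ratio in 10 equal groups of transcript length (log axis, bases) with quartiles, and the members as labelled points. From the shortest group to the longest, the median goes from -0.13 to 0.19 in KO against WT and from 0.22 to -0.20 in rescue against KO. Ttn and Neb sit at the long end, and Mybpc1 lies outside the axes.

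The titin rows of different transcripts did not all follow the highest row. Rows of a gene appear to share reads and were not added. Transcript variant X12, a row of 20282 bases or 18.8% of the highest row's length, had 1247 counts in WT, against 1705 in KO and 1369 in rescue. That was 6.09% of the highest row's count in WT (interval 5.76 to 6.42), 8.42% in KO (interval 8.04 to 8.81) and 7.49% in rescue (interval 7.12 to 7.89). X12 was thus highest in KO, with a log2 ratio of 0.48 against WT, although the highest row hardly differed. Where along the gene this row lies was not analysed here. N2-A and N2-B are the skeletal and the stiffer cardiac titin isoforms. The N2-A row had 641 more counts than the N2-B row in WT, 742 in KO and 545 in rescue, or 3.13%, 3.67% and 2.99% of the N2-A count. This is a net difference, since each of these transcripts holds bases that the other lacks.

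The window around the annotated start of Ttn is shown because titin is the most heavily counted giant gene and its window holds several of the motifs searched. Windows run from 250 bases before to 50 after the start, 5′ to 3′, from RefSeq on GRCm38.p6, whereas the deposited tables used GRCm39. Entries matched 6 of the 8 members. Capitals mark matches to CANNTG, the E-box of MyoD-family factors, to CATTCC, a TEAD-type site, and to the MEF2 and SRF motifs, all on both strands, and to TATAA on the given strand only. CAGCTG is itself a CANNTG. Of 32851 such windows, 72.3% hold CANNTG, 16.3% CAGCTG, 14.7% CATTCC, 17.5% TATAA, 0.557% the MEF2 motif and 1.63% the SRF motif. The Ttn window is chr2:76982498-76982797 on the minus strand. It has a MEF2 match 166 bases before the start, CAGGTG 138 before, TATAA 28 before and CATTCC 12 after.
Ttn: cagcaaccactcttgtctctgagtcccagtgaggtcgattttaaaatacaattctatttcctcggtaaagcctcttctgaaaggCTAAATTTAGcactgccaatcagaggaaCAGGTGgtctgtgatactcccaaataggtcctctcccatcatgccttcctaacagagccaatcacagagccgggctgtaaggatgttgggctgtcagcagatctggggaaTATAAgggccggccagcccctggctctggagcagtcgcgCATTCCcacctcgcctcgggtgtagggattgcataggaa

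The 3 myomesins, the M-band crosslinkers, were each highest in rescue. Myom1, the myomesin of all striated muscle, had 2469 counts in WT, against 1766 in KO and 2906 in rescue. It was 1.37-fold lower in KO than in WT (log2 ratio -0.46, interval -0.55 to -0.37) whereas rescue exceeded KO 1.65-fold (log2 ratio 0.72, interval 0.64 to 0.81). Rescue was also above WT for Myom1 (log2 ratio 0.26, interval 0.19 to 0.34). With the length trend removed, its first 2 ratios were -0.56 and 0.83.

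Myom2, known from the M-bands of fast fibres and adult heart, had 12334 counts in WT, against 10935 in KO and 13041 in rescue. The order was that of Myom1 with smaller steps. Myom2 was 1.11-fold lower in KO than in WT (log2 ratio -0.15, interval -0.19 to -0.11). Rescue exceeded KO by a log2 ratio of 0.26 (interval 0.22 to 0.29) and WT by 0.11 (interval 0.07 to 0.14). With the length trend removed, the ratios of KO against WT and rescue against KO were -0.24 and 0.35.

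Myom3, the third family member, had 1390 counts in WT, against 1318 in KO and 1751 in rescue. For Myom3 the KO and WT libraries could not be told apart at this depth (log2 ratio -0.05, interval -0.16 to 0.06), and rescue was highest. The rescue count exceeded KO 1.33-fold (log2 ratio 0.41, interval 0.31 to 0.52) and WT 1.28-fold (log2 ratio 0.36, interval 0.26 to 0.46). Removal of the length trend gave Myom3 log2 ratios of -0.15 for KO against WT and 0.52 for rescue against KO.

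Per length, Myom2 made up 76.8% of the summed myomesin level in WT, 78.6% in KO and 74.4% in rescue. Myom1 took 14.8%, 12.2% and 16.0%, and Myom3 took 8.39%, 9.18% and 9.68%. Myom2 was thus the main myomesin RNA in each library. The ratio of Myom2 to Myom1 was 5.19 in WT (interval 4.97 to 5.42), 6.43 in KO (interval 6.11 to 6.76) and 4.66 in rescue (interval 4.48 to 4.85), highest in KO with intervals that do not overlap.

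The Myom1 gene makes a form with an extra exon, the EH-myomesin of embryonic heart and slow muscle. Transcript variants 1 and 2 differ in length by 294 bases, and whether these are that exon was not analysed here. The longer variant's row held only 7 more counts than the shorter one's in WT, 1 more in KO and 1 more in rescue. That is 0.284% of the row's count in WT (interval 0.114 to 0.583), 0.0566% in KO (interval 0.00143 to 0.315) and 0.0344% in rescue (interval 0.000871 to 0.192), and these intervals overlap. Partial rows of Myom1 differed more. Variant X3, with 51.3% of the highest row's length, held 37.4% of its count in WT, 42.5% in KO and 37.8% in rescue. Variant X1, with 57.5% of that length, went the other way, with 69.0% in WT (interval 67.1 to 70.8), 64.6% in KO (interval 62.3 to 66.8) and 68.0% in rescue (interval 66.3 to 69.7). Over the 5 Myom1 rows the log2 ratio of KO against WT ran from -0.55 to -0.27, so each row was lower in KO. Over the 4 Myom3 rows it ran from -0.09 to 0.02.

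**Figure D4:**
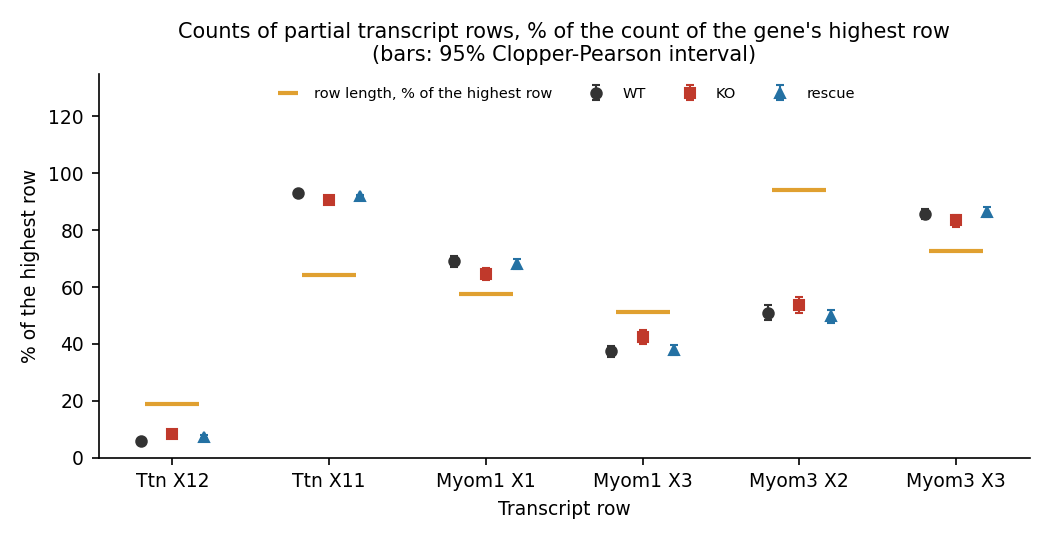
Counts of partial transcript rows of Ttn, Myom1 and Myom3 as a percentage of the count of the gene's highest row, with 95% intervals, and row length on the same scale as a dash. Ttn X12 stands at 6.09% in WT, 8.42% in KO and 7.49% in rescue.

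The Myom1 window, shown as the myomesin with the widest steps between libraries, is chr17:71019307-71019606 on the plus strand. It has an SRF match 99 bases before the start and 3 CANNTG matches, CATTTG 231, CATGTG 130 and CACATG 55 before it.
Myom1: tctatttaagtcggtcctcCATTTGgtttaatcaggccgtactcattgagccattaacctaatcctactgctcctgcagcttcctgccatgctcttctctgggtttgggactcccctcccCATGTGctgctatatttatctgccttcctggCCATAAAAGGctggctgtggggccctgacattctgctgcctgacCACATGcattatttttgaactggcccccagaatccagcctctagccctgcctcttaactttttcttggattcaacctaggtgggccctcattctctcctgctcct

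The myosin binding proteins held both the most abundant member and the most variable one. The windows of the 3 genes are given together because their counts went different ways. Mybpc1 is chr10:88605103-88605402 on the minus strand, Mybpc2 chr7:44524620-44524919 on the minus strand and Mybph chr1:134193198-134193497 on the plus strand.
Mybpc1: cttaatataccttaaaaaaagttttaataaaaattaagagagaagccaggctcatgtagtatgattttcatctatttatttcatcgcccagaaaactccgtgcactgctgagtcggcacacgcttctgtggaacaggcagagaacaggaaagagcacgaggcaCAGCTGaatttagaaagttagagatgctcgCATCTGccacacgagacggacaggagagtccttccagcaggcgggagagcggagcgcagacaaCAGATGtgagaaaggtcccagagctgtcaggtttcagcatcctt
Mybpc2: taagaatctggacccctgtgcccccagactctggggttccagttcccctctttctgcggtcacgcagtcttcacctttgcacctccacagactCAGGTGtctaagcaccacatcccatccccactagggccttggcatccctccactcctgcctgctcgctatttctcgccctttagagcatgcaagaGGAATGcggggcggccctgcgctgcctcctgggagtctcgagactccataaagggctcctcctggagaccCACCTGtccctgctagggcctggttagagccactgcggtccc
Mybph: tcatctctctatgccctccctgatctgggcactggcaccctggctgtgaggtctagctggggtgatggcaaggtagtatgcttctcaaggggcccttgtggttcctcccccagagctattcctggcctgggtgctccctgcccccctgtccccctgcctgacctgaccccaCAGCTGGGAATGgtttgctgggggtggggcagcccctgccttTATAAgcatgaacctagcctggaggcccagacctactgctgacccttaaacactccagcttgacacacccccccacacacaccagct
The Mybpc1 window has CAGCTG 87 bases before the start, CATCTG 57 before and CAGATG 7 after. The Mybpc2 window has CAGGTG 157 before, GGAATG, which is CATTCC on the other strand, 62 before and CACCTG 9 after. The Mybph window has CAGCTG 79 before, GGAATG 73 before and TATAA 37 before. A match describes letters in a window, and binding was not measured.

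Mybpc1 encodes the slow-type myosin binding protein C, which is also made in fast fibres. It had 223 counts in WT, against 2 in KO and 27 in rescue, and the 3 libraries were apart beyond counting error. KO was 87.9-fold lower than WT (log2 ratio -6.46, interval -9.83 to -4.91), a wide interval because KO held 2 counts. Among the 13381 genes 11 had a lower ratio. The rescue library exceeded KO by a log2 ratio of 3.46 (interval 1.77 to 6.88), with 1 gene at a higher ratio. Both ranks are among genes kept by the filter, which Mybpc1 passed mostly through its WT count. Rescue fell short of WT 7.97-fold, at a log2 ratio of -2.99 (interval -3.65 to -2.44). The rescue level was thus 12.6% of WT. Its 22 rows appear to share nearly all reads, so their like counts are no separate check. The lowest row held 98.7% of the highest row's count in WT and 100% in KO and rescue.

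Mybpc2 encodes the fast-type myosin binding protein C. It had 230 counts in WT, against 251 in KO and 534 in rescue, so rescue stood above both other libraries. KO and WT could not be told apart for Mybpc2 at this depth (log2 ratio 0.15, interval -0.11 to 0.42). The rescue level of Mybpc2 was 2.13 times that of KO (log2 ratio 1.09, interval 0.87 to 1.31) and 2.37 times that of WT (log2 ratio 1.24, interval 1.02 to 1.47). Per length, Mybpc2 stood to Mybpc1 at 1.19 in WT (interval 0.986 to 1.44), 145 in KO (interval 39.7 to 1203) and 22.8 in rescue (interval 15.5 to 35.0). The slow and fast forms were thus near equal in WT, and the fast form was the higher one in KO and rescue.

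Mybph encodes myosin binding protein H, a shorter relative of the C proteins found in fast fibres. It had 24012 counts in WT, against 16374 in KO and 22238 in rescue, with KO lowest and rescue near WT. Mybph was 1.44-fold lower in KO than in WT (log2 ratio -0.53, interval -0.56 to -0.50). The rescue level of Mybph was 1.36 times that of KO (log2 ratio 0.44, interval 0.42 to 0.47) and stood slightly under WT (log2 ratio -0.08, interval -0.11 to -0.06). Per length, Mybph made up 98.7% of the summed level of these 3 genes in WT, 98.9% in KO and 98.2% in rescue.

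The members were set on one scale, counts per kilobase of the highest row scaled to 1 fixed sum over all genes as in TPM. With these rows the 8 members kept one order in all 3 libraries. Mybph was highest, at 1416 in WT, 1028 in KO and 1277 in rescue, and Myom2 next at 352, 332 and 362. Myom1 followed at 67.9, 51.7 and 77.8, then Neb at 45.2, 39.1 and 53.5 and Myom3 at 38.5, 38.8 and 47.2. Ttn stood sixth among them at 29.4, 30.9 and 25.5, although by raw count it ranked 42, 38 and 48 of all genes, because its length divides a large count. Its place depends on the row taken. The Ttn row X11, with 64.4% of the highest row's length, held 92.9% of its count in WT, 90.5% in KO and 92.0% in rescue. Mybpc2 was at 9.79, 11.4 and 22.1, and Mybpc1 lowest at 8.22, 0.0785 and 0.969. Mybpc2 and Mybpc1 in WT, and Neb and Myom3 in KO (ratio 1.01, interval 0.9499 to 1.072), were neighbours in this order that did not differ beyond counting error. The ratio of Mybph to Myom2 was 4.02 in WT, 3.09 in KO and 3.52 in rescue.

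**Figure D5:**
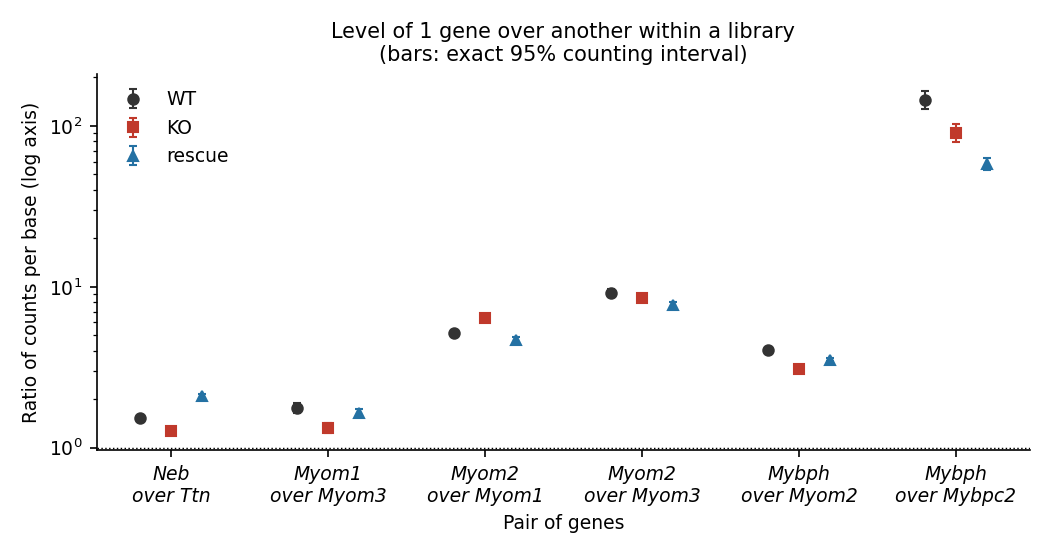
Ratios of levels per length between pairs of members within each library, on a log axis with 95% intervals. With the highest row of each gene, Neb over Ttn is 1.54 in WT, 1.27 in KO and 2.10 in rescue, and Mybph over Mybpc2 is 145, 90.4 and 57.7.

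Partners of these proteins were read from 6 lists with 52 further genes, of which 48 passed the filter. In KO against WT 2 were higher by 2-fold or more, against 5.34% of all genes, and 6 lower, against 4.06%. In rescue against KO 4 were higher, against 1.3%, and 0 lower, against 0.575%. One of these 4, Rbm24, had 3 counts against 0 and an interval that covers 0, and it passed the filter through its WT count. In rescue against WT 3 were higher, against 4.58%, and 2 lower, against 3.06%. The medians were -0.18, 0.19 and -0.04.

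Among titin's partners, 1 of 17 measured was higher in KO, against 5.34% of all genes, and 2 were lower, against 4.06%. Tcap, which caps titin at the Z-disc, had 155 counts in WT, against 36 in KO and 222 in rescue. Actn2, the Z-disc actin crosslinker, had 176, 31 and 89. Ankrd2, a stretch-responsive protein of the titin spring region, had 815, 5380 and 5579, so that it was high in both KO and rescue. Among 13 nebulin relatives and partners, Nrap, an actin-binding nebulin relative of early myofibrils, had 838, 2444 and 2808 counts, and Lmod3, which nucleates thin filaments, had 2098, 676 and 1285. Klhl41, which stabilises nebulin, had 6310, 3344 and 5870, a log2 ratio of -0.89 for KO against WT that stayed within 2-fold.

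At the M-band, Ckm, the muscle creatine kinase that docks there, had 4406 counts in WT, against 1424 in KO and 3527 in rescue. It was the 1 of 3 other M-band genes lower by 2-fold or more in KO, against 4.06% of all genes. In rescue it was 2.48-fold above KO. Obsl1, which links titin and myomesin at the M-band, had 2332, 1381 and 1480 counts. Of the other myosin binding proteins, cardiac Mybpc3 had 1, 4 and 16 counts and Mybphl had 0 in each library, and neither passed the filter.

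Of 7 thick filament assembly genes, Myo18b, an unconventional myosin needed for sarcomere assembly, had 574 counts in WT, against 10 in KO and 16 in rescue. It was the only one past 2-fold, lower in KO and in rescue than in WT, against 4.06% and 3.06% of all genes. Unc45b, a myosin chaperone, had 1488, 1053 and 1510 counts, and Smyd1, its partner, had 1657, 2202 and 2598. Of 10 splicing regulators measured, Rbm24, which promotes muscle splicing, had 81 counts in WT, against 0 in KO and 3 in rescue. The near end of its counting interval put KO 21.1-fold below WT, and with 0 counts in KO the far end is open. Rbm20, the regulator of titin splicing, had 1507, 1648 and 1475 counts and was within 2-fold throughout.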

How the data were processed

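RNA-seq of 3 C2C12 libraries, 1 per group, was analysed from the deposited tables. Per the submitters' processing notes, cutadapt 1.9.1, HISAT2 2.2.1 and featureCounts 2.0.0 were used with GRCm39. Their settings, strand and the handling of reads matching several genes included, were not given in the sources used here, so counts of overlapping or antisense genes and of close relatives are uncertain. The deposited count column held whole numbers without normalization, per the file headers. The deposited RPKM and TPM columns, made by the authors, differed from values recomputed from counts and lengths by at most 4.975e-06 and 4.402e-06, and only counts were analysed.

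Each table had 139023 transcript rows. The row with the highest summed count stood for its gene. Libraries were brought to one scale by TMM (edgeR 4.0.16, R 4.3.3), with factors of 1.01 for WT, 1.00 for KO and 0.989 for rescue, and 0.5 was added before log2. Genes with a mean of at least 1 CPM were kept. Higher or lower means 2-fold or more where counted. Exact conditional (Clopper-Pearson) 95% intervals came from scipy 1.17.1 and were tested on simulated data. They cover counting error alone, because no molecular identifiers mark independent molecules. No p-value was computed. Named genes were the members, Dnm1l, genes of 6 fixed pathway lists and 7 marker lists, and the 3 genes nearest each member by distance between log2 ratios, where a gene needed 200 counts in its highest library. The members and lists were chosen with earlier results of these data known. Values of some listed genes are not reported here. Alternatives were total counts, DESeq2 1.42.0 size factors, upper quartile factors, other rows, another added count, other filters and removal of a length trend (statsmodels 0.14.6 lowess, span 0.3).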

Additional observations from a re-analysis of the deposited data

How the results depend on the processing

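Over 213 values of the members under 9 alternative settings, 208 kept their direction and 197 stayed within the counting interval. Ttn in KO against WT changed sign with total gene counts (-0.0068), with DESeq2 size factors (-0.0029), with the sum over transcript rows (-0.0017) and with the length trend removed (-0.21), and in rescue against KO with the length trend removed (0.23). With a filter of 10 CPM, which removes Mybpc1, members past 2-fold numbered 0 in KO against WT, 1 in rescue against KO and 1 in rescue against WT. Pathway genes past 2-fold numbered 5 and 1 of 42 in the first 2 comparisons, against 8 and 4 of 48 before. The calls lost were genes with low counts that this filter removed. In rescue against KO these were Actn2, Rbm24 and Tcap, which left Ckm. With the longest row's length, Mybph over Myom2 was 4.23 in WT, 3.25 in KO and 3.71 in rescue. Depth limits Mybpc1, with 2 counts in KO. No paired analysis was possible because the labels give no replicate numbers and each group has 1 library, and no library could be left out.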

Other observations

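The genes nearest to each member, by the distance between their log2 ratios against WT over 3 libraries, were sought among 8988 genes, as a description. Mybpc1 had none within 0.1, and its nearest was Trdn, triadin of the calcium release complex, at 1.23, followed by Pnmal2 at 1.89 and Myo18b at 2.22. Mybpc2 had none within 0.1 either, and its nearest were Smpx, a small muscle protein, at 0.133, Ankrd23 at 0.241 and Myh6, a myosin heavy chain, at 0.246. Myom1 had 6 genes within 0.1, led by Ndufa2, a subunit of respiratory complex I, at 0.0216, Pygm, muscle glycogen phosphorylase, at 0.0392 and Hrc, a calcium-binding protein of the sarcoplasmic reticulum, at 0.0648. Neb had 8, led by Timm8b at 0.0491, Ndufb1 at 0.0611 and Bccip at 0.0790. Myom3 had 34, led by Cep19, a centrosomal protein, at 0.0220, Pfkm, muscle phosphofructokinase, at 0.0221 and Uqcrq, a complex III subunit, at 0.0257. Ttn had 488, Myom2 343 and Mybph 54, so their nearest genes say little about them. Among the members themselves Neb and Myom1 were closest, at 0.191.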
